A study of Homo sapiens with 6 samples.

Results

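The neural cell adhesion molecules, the L1 family of adhesion molecules and the enzymes that add polysialic acid were examined in total RNA sequencing of human neuroblastoma cells. The 8 genes, of 60651 in each table, were *NCAM1* and *NCAM2*, the L1 family genes *L1CAM*, *CHL1*, *NRCAM* and *NFASC*, and the polysialyltransferases *ST8SIA2* and *ST8SIA4*. *NCAM1* was chosen by its rise in the libraries labelled Tet, so its difference is described and not tested. The other 7 are its relatives and modifiers. The choice names no value of theirs, but they were listed with earlier results of these data known, which limits their p-values. There were 6 libraries, 3 labelled EtOH and 3 labelled Tet, and the labels give 5 days of tetracycline for induction. The titles name IMR-5/75, a *MYCN*-amplified neuroblastoma line, and a tag calls the EtOH libraries the control and the Tet libraries the induction of a knockdown. The protocol text, given for all 6, instead describes SK-N-SH cells that stably carry *MYCN* under tetracycline control through a tetracycline repressor, kept as single clones under G418 and blasticidin. The study's methods describe SK-N-AS cells made to express *MYCN* and IMR-5/75 cells in which a shRNA against *MYCN* could be induced. The titles and the tag match the shRNA cells, and the protocol text does not. The groups were therefore taken from the titles, and EtOH and Tet below stand for those labels alone. By the titles and the tag tetracycline should lower *MYCN*, and by the protocol text it should raise it, so the labels conflict. The study's methods state that tetracycline induced the IMR-5/75 knockdown, which was checked by a western blot for MYCN protein. The study describes its cell culture work in general as independent biological replicates, but the labels do not tie each library to a culture of its own, so the p-values measure the spread between these libraries, which may be technical.

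NCAM proteins and the L1 family are cell surface proteins of the immunoglobulin superfamily that hold neural cells together and guide growing axons. Polysialic acid is a long chain of sialic acid attached mainly to NCAM1, and it weakens adhesion between the cells that carry it. ST8SIA2 and ST8SIA4 build the chain in the Golgi apparatus from activated sialic acid, and many neuroblastomas carry both NCAM1 and its polysialylated form. Only RNA was measured here, so neither the proteins nor the sugar chain were observed.

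Libraries held 27933378 to 40498065 counts, and 3 counts correspond to 0.0741 to 0.107 CPM, a count divided by the library's total and scaled alike in all libraries. Levels below are CPM after TMM scaling, which allows for differences in library composition, and the 3-count floor covers counting error only. *MYCN*, the gene whose change was intended, lay between 155.9 and 256.3 CPM in EtOH and between 145.4 and 200.1 CPM in Tet, with a log2 fold change of -0.07 (edgeR adjusted p = 0.956). Its groups overlapped, so the labelled change was not seen in its RNA. EtOH replicate 2 had the highest score, 84.2, on the first principal component, which held 44.73% of the variance, followed by Tet replicate 2 with 47.3, while the second, with 25.7%, separated the labels. EtOH replicate 2 was the lowest of its group for 6 of the 8 genes, as it was for 45.8% of all 22443 genes tested. Tet replicate 2 was likewise the lowest of its group for 6 of the 8, and for 40.7% of all genes tested. A shift shared by both replicate 2 libraries was not tested, and leaving out EtOH replicate 2 alone would not remove it from Tet. Where leaving out EtOH replicate 2 moved a call, the difference is also given without it for the 8 genes, and the calls for the lists. Of 9 markers of noradrenergic neuroblastoma, 6 reached 1 CPM in every library, with summed levels of 622 to 681 CPM in EtOH and 687 to 836 CPM in Tet, although *TH* and *DBH*, which encode enzymes of noradrenaline synthesis, were at most 0.0252 and 0.453 CPM. Of 10 mesenchymal markers, 8 reached 1 CPM in every library, with summed levels of 348 to 601 CPM in EtOH and 345 to 510 CPM in Tet and *COL1A2* at 0. None of 5 Schwann cell markers did, with sums of 2.69 to 4.48 and 1.68 to 5.59 CPM and *S100B* at 0. None of 4 blood cell markers did either, with sums of 0.595 to 0.902 and 0.201 to 0.762 CPM and *CD3E* at 0.

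All 8 genes passed the filter on low counts, with 2448 counts over the 6 libraries for *L1CAM*, the fewest, and 30910 for *NCAM1*, the most. In the edgeR fit of all 6 libraries with no replicate term, 33 of all genes tested were higher and 20 lower in Tet, or 0.236% at an edgeR adjusted p under 0.05, and 10.8% passed at an unadjusted p under 0.05. With 1 library left out the counts after adjustment ran from 0 to 361 higher and from 0 to 331 lower, with the highest counts without EtOH replicate 2 and at most 1 in each direction without any of the other 5. In that fit none of the 7 genes other than *NCAM1* passed after adjustment by edgeR, and 2 passed unadjusted (*L1CAM* higher and *CHL1* lower). DESeq2 called 1 of the 7 higher, *L1CAM*, against 1.29% of all genes to which it gave an adjusted p, and limma-voom called 0. All Tet libraries lay above all EtOH libraries for 1 of the 7, *L1CAM*, against 9.21% of all genes tested, and below them for 1, *ST8SIA4*, against 8.29%. These counts of 1 in 7 lay near the shares over all genes. The median log2 fold change of the 7 was 0.11, with 5 above 0 and 2 below, beside -0.0061 over all genes tested. In bulk RNA, more cells with a transcript and more transcript in each cell cannot be told apart.

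**Figure D1:**
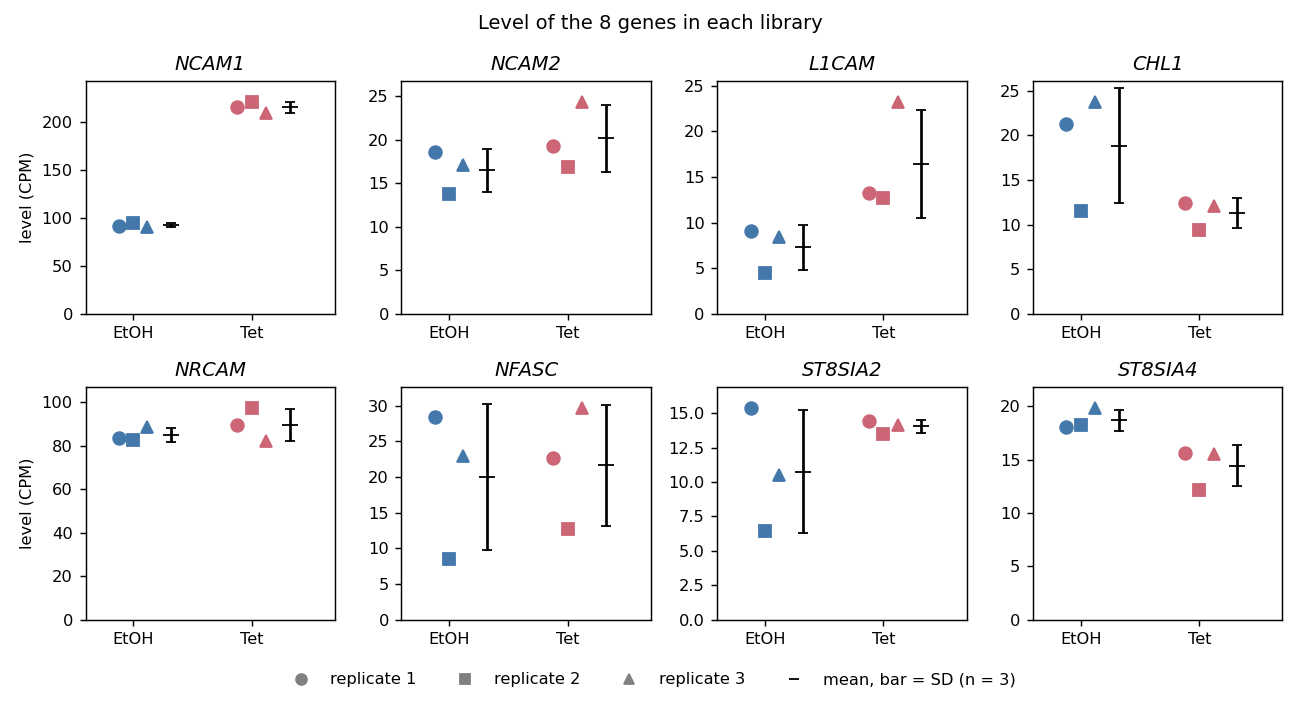
Level of each of the 8 genes in CPM (vertical axes, each from 0) in the EtOH (blue) and Tet (red) libraries, with 1 marker shape for each replicate number and the mean with its SD (n = 3) in black. The groups are apart for *NCAM1*, *L1CAM* and *ST8SIA4* and overlap for the other 5, and the square of EtOH replicate 2 is the lowest blue marker in 6 panels.

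Sequences before the start of transcription were available in RefSeq (GRCh38.p14) for 6 of the 8 genes, in 12 windows of 250 bases. They were searched on both strands for CACGTG, the E-box bound by MYC family proteins, for the GC box GGGCGG, bound by SP family factors, and for TATAAA, the TATA box. The E-box was in 0 of the 12 windows and in 6.34% of all 35116 windows of that length, the GC box in 5 and in 42.6%, and the TATA box in 0 and in 10.7%. A match or its absence says only whether these letters are in the window, and the 2 *L1CAM* windows overlap each other. The examples below are from the L1 family pair that differed most in direction and from the polysialyltransferase whose groups did not overlap, with GC boxes in capitals, written 5′ to 3′ on the gene's strand. In *ST8SIA4* the box reads on the opposite strand, and the *CHL1* window holds none of the 3 motifs. The *L1CAM* stretch ends 23 bases before one RefSeq start, and 2 of its 30 bases lie in an exon of the gene. That start, chrX:153876014, lies inside the gene as counted, which begins at 153886173 on its strand. Of the 250 bases of its window, 176 lie in exons of *L1CAM*. The *NCAM2* window and some windows of *CHL1*, *NRCAM* and *NFASC* also lie inside their genes. The printed *CHL1* and *ST8SIA4* windows hold no exon base of their gene, but another *CHL1* window has 246 of its 250 bases in exons.
*L1CAM*, chrX:153876038-153876067, minus strand: agctggGGGCGGggctgaGGGCGGggccaa
*CHL1*, chr3:196513-196762, plus strand: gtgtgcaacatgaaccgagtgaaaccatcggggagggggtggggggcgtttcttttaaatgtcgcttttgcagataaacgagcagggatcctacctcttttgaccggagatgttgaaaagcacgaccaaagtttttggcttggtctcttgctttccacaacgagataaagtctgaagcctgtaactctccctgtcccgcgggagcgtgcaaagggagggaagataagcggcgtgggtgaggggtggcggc
*ST8SIA4*, chr5:100903283-100903532, minus strand: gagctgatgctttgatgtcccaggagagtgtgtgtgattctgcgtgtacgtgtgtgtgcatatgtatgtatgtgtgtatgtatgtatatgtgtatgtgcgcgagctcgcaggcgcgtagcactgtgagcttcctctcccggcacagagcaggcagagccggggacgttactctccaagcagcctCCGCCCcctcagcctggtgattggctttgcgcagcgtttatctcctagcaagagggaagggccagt

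*NCAM1* (ENSG00000149294.17, GRCh38 chr11:112961247-113278436, plus strand) encodes the main carrier of polysialic acid. In the order of replicates 1, 2 and 3, as in all that follows, it measured 91.5, 95.1 and 90.7 CPM in EtOH and 216.1, 221 and 209.4 CPM in Tet. Every Tet library was far above every EtOH library, and replicates differed little. The means were 92.4 ± 2.35 and 215.5 ± 5.80 CPM (SD, n = 3), a log2 fold change of 1.22 or 2.33-fold, the value that selected the gene. Of all genes tested, 2.32% had a higher log2 fold change. The SD of its log2 CPM within a group was 0.0377, and 0.129% of genes tested had a smaller one, beside a median of 0.400 over all genes tested. Both shares come from the same libraries and contrast that chose the gene, so neither tests it. Of its exon bases, 8.09% lie in genes on the opposite strand, *NCAM1-AS1*, *TTC12-DT* and ENSG00000247416. The counting did not use strand, so reads of these genes and *NCAM1* there cannot be told apart. *NCAM1-AS1* had a mean of 1.76 CPM in EtOH and 3.48 CPM in Tet (log2 fold change 0.98, edgeR adjusted p = 0.287), far below the level of *NCAM1*.

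*NCAM2* (ENSG00000154654.15, chr21:20998409-21543329, plus strand) encodes a paralogue of NCAM1 best known from olfactory axons. Its level was 18.6, 13.7 and 17.1 CPM in EtOH and 19.3, 16.8 and 24.3 CPM in Tet. The groups overlapped, with the lowest Tet library under the highest EtOH library. The log2 fold change was 0.29 (SE 0.21, 95% interval -0.18 to 0.77, edgeR adjusted p = 0.699). Per exon length, in TPM, which scales counts by exon length and then to a common library total, *NCAM2* was 0.274 ± 0.0472 of *NCAM1* in EtOH and 0.144 ± 0.0313 in Tet (SD, n = 3), and no Tet ratio reached the EtOH ratios. This ratio carries the difference of *NCAM1* that selected it.

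Among the L1 family, *L1CAM* was higher in each Tet library, *CHL1* leaned lower, and *NRCAM* and *NFASC* showed no difference larger than their spread. *L1CAM* (ENSG00000198910.14, chrX:153861514-153886173, minus strand), the founding member, binds itself and other adhesion molecules on growing axons. Its level was 9.05, 4.49 and 8.40 CPM in EtOH and 13.2, 12.7 and 23.2 CPM in Tet. The lowest Tet library was above the highest EtOH library, and Tet replicate 3 was well above the other two. The log2 fold change was 1.16 (SE 0.34, 95% interval 0.39 to 1.94), or 2.24-fold, with an edgeR adjusted p of 0.249. Without EtOH replicate 2, the lowest library, it was 0.92 (edgeR adjusted p = 0.111), and by DESeq2 on all 6 libraries 1.15 (DESeq2 adjusted p = 0.0359). Tet replicate 3 was also the highest library for *PHOX2A*, a noradrenergic transcription factor, with 23.4 CPM, for *CHGA*, a protein of secretory granules, with 7.88 CPM, and for *AGRN*, a matrix protein, with 1.65 CPM. Without Tet replicate 3 the log2 fold change of *L1CAM* was 0.83 (edgeR adjusted p = 0.516). Of the exon bases of *L1CAM*, 11.0% lie in other genes, 4.94% of the exon bases on the opposite strand, and those genes, ENSG00000284987 and *L1CAM-AS1*, reached at most 1.25 and 0.252 CPM, both in Tet replicate 3.

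*CHL1* (ENSG00000134121.10, chr3:196763-409417, plus strand) encodes the close homologue of L1. Its level was 21.3, 11.5 and 23.7 CPM in EtOH and 12.4, 9.35 and 12.1 CPM in Tet. EtOH replicate 2 fell within the Tet range, and the other EtOH libraries lay well above it. The log2 fold change was -0.74 (SE 0.28, 95% interval -1.39 to -0.098, edgeR adjusted p = 0.391). Without EtOH replicate 2 it was -0.99 (edgeR adjusted p = 0.0269), the only fit that called *CHL1*. That fit called 331 of 23935 genes lower, against 20 of 22443 in the fit of all 6 libraries. Of its exon bases, 4.14% lie in the antisense genes *CHL1-AS1*, with means of 1.02 CPM in EtOH and 0.564 CPM in Tet, and *CHL1-AS2*, at 0.132 CPM in both. Of the 4 named antisense genes of the 8, 2 passed the filter and neither was called, with *CHL1-AS1* at -0.86 (edgeR adjusted p = 0.584).

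*NRCAM* (ENSG00000091129.21, chr7:108147623-108456717, minus strand) and *NFASC* (ENSG00000163531.16, chr1:204828651-205022822, plus strand) encode proteins that link to ankyrin and assemble nodes of Ranvier and axon initial segments. *NRCAM* measured 83.8, 82.6 and 88.6 CPM in EtOH and 89.6, 97.3 and 82.5 CPM in Tet. The groups overlapped within a narrow range, and the log2 fold change was 0.08 (SE 0.14, 95% interval -0.24 to 0.40, edgeR adjusted p = 0.905). *NFASC* measured 28.5, 8.58 and 23.0 CPM in EtOH and 22.7, 12.7 and 29.6 CPM in Tet. Replicate 2 was lowest under both labels, and the groups overlapped. The log2 fold change was 0.11 (SE 0.44, 95% interval -0.89 to 1.12, edgeR adjusted p = 0.967), and it was -0.24 without EtOH replicate 2 and -0.18 without Tet replicate 3.

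*ST8SIA2* (ENSG00000140557.12, chr15:92393881-92468728, plus strand) is the polysialyltransferase that predominates in embryonic brain, and *ST8SIA4* (ENSG00000113532.13, chr5:100806933-100903282, minus strand) the one that prevails later. *ST8SIA2* measured 15.3, 6.46 and 10.5 CPM in EtOH and 14.4, 13.5 and 14.2 CPM in Tet. The Tet libraries were close together within the range of the EtOH libraries, and the log2 fold change was 0.38 (SE 0.30, 95% interval -0.29 to 1.06, edgeR adjusted p = 0.724). Without EtOH replicate 2 it was 0.12, and without EtOH replicate 1, the highest EtOH library, 0.71 (edgeR adjusted p = 0.579). *ST8SIA4* measured 18.1, 18.2 and 19.8 CPM in EtOH and 15.6, 12.2 and 15.5 CPM in Tet. All Tet libraries were below all EtOH libraries, and the log2 fold change was -0.37 (SE 0.18, 95% interval -0.78 to 0.039, edgeR adjusted p = 0.519). The interval reached just above 0.

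**Figure D2:**
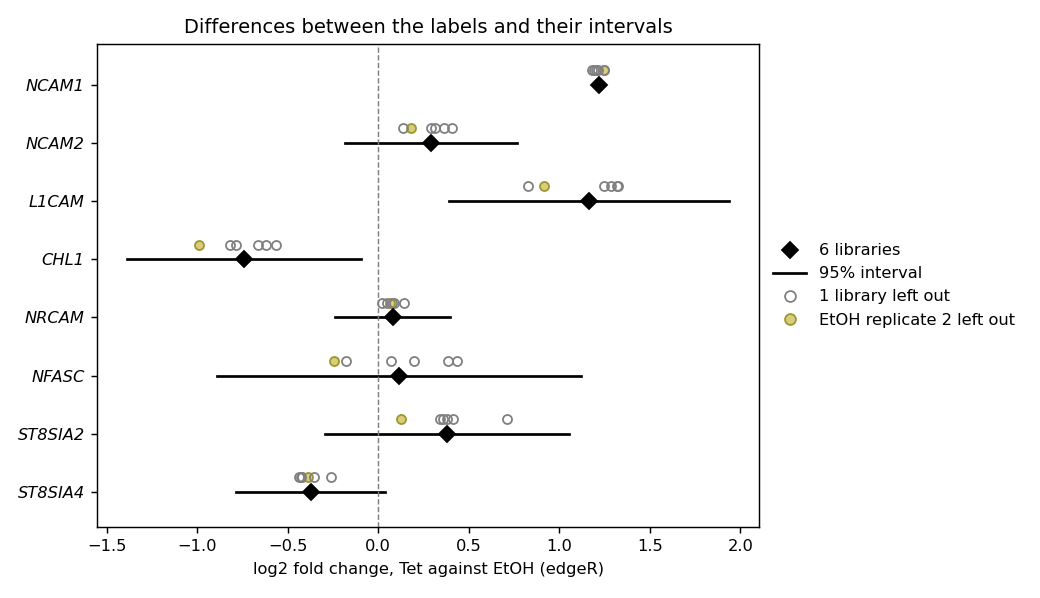
Log2 fold change of Tet against EtOH from edgeR (horizontal axis) for the 8 genes, as black diamonds with the 95% interval as a line, and as circles the values with 1 library left out, yellow where it is EtOH replicate 2. *NCAM1* has no interval, since this contrast chose it, and its circles lie between 1.18 and 1.25. The yellow circle of *CHL1* is at -0.99, and the circles of *NFASC* lie on both sides of 0.

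Per exon length, which allows levels of different genes to be compared, *NRCAM* and *NCAM1* stood above the other 6 in all libraries, and their order changed with the label. In EtOH *NRCAM* had 28.8 ± 1.17 TPM and *NCAM1* 20.3 ± 1.55 TPM (SD, n = 3). In Tet *NCAM1* had 45.0 ± 4.31 TPM and *NRCAM* 29.1 ± 4.11 TPM. The ratio of *NRCAM* to *NCAM1* was 1.42, 1.34 and 1.51 in EtOH and 0.642, 0.681 and 0.610 in Tet, a switch that follows from the difference of *NCAM1*. In EtOH the order went on with *ST8SIA4* (6.67 ± 0.381 TPM), *NCAM2* (5.52 ± 0.586), *ST8SIA2* (5.07 ± 1.91), *CHL1* (4.45 ± 1.36), *L1CAM* (2.78 ± 0.830) and *NFASC* (2.58 ± 1.25). *ST8SIA4* did not overlap with *NCAM2*, and from *NCAM2* on each neighbour overlapped with the next. In Tet the order went on with *NCAM2* (6.42 ± 0.827 TPM), *ST8SIA2* (6.38 ± 0.531), *L1CAM* (5.89 ± 1.65), *ST8SIA4* (4.91 ± 0.694), *NFASC* (2.67 ± 0.931) and *CHL1* (2.56 ± 0.407). The first 4 of these overlapped from neighbour to neighbour, as did the last pair, and *ST8SIA4* stayed above *NFASC*. Among the mean levels of all genes tested, *NCAM1* was at percentile 73.7 in EtOH and 87.9 in Tet, *L1CAM* at 34.2 and 50.1, *CHL1* at 43.5 and 33.8, and *NRCAM* at 79.8 and 81.0.

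**Figure D3:**
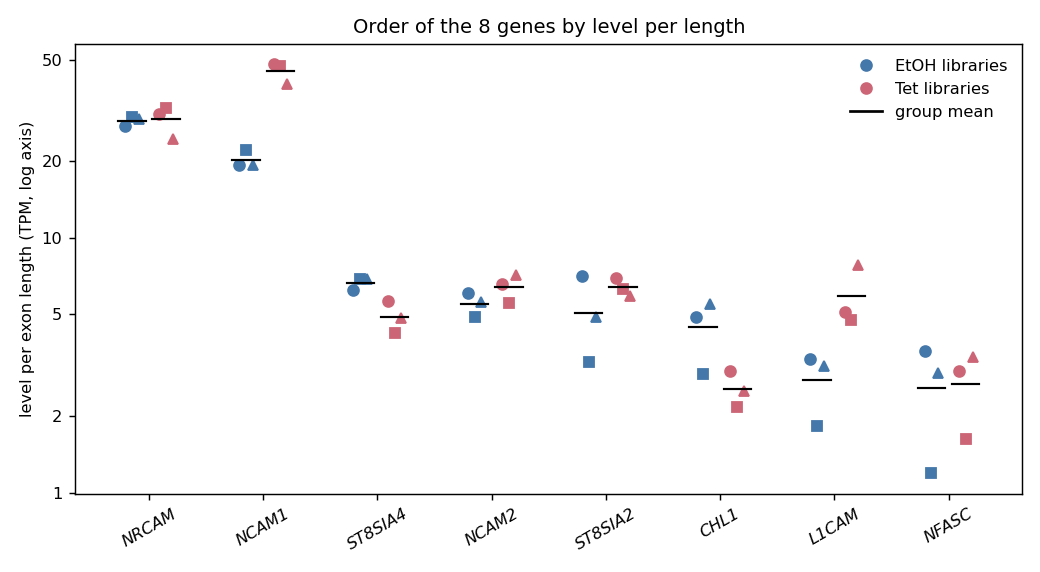
Level per exon length in TPM (log axis) for the 8 genes in the order of their EtOH mean, with each library as a marker (EtOH blue, Tet red) and the group mean as a black bar. *NRCAM* and *NCAM1* lie above 19 TPM in each library and the others below 8 TPM, and *L1CAM* moves from the 7th place in EtOH to the 5th in Tet.

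Levels per length were also summed over related genes within each library. The summed level of the L1 family was 38.6 ± 2.73 TPM in EtOH and 40.2 ± 1.89 TPM in Tet (SD, n = 3), and the groups overlapped. Within that sum *L1CAM* held 8.54%, 5.13% and 7.68% in EtOH and 12.3%, 11.7% and 20.4% in Tet, and *CHL1* held 12.5%, 8.20% and 13.5% and then 7.14%, 5.34% and 6.59%. The share of *L1CAM* was thus higher and that of *CHL1* lower in each Tet library, while *NRCAM*, with means of 74.9% and 72.2%, held most of the sum under both labels and so largely set it. The log2 ratio of *CHL1* to *L1CAM* was 0.55, 0.68 and 0.81 in EtOH and -0.78, -1.13 and -1.63 in Tet. In all EtOH libraries, replicate 2 included, *CHL1* exceeded *L1CAM*, and in all Tet libraries it was below. The summed level of *ST8SIA2* and *ST8SIA4* was 11.7 ± 1.58 TPM in EtOH and 11.3 ± 1.13 TPM in Tet, with overlap. The ratio of *ST8SIA4* to *ST8SIA2* was 0.881, 2.11 and 1.42 in EtOH and 0.810, 0.675 and 0.821 in Tet. The Tet ratios were the lower ones, but EtOH replicate 1 was close to them. *NCAM1* held 26.7% ± 3.16 of the summed TPM of the 8 genes in EtOH and 43.7% ± 1.87 in Tet. These ratios and shares carry no test, since the genes were chosen with results known.

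**Figure D4:**
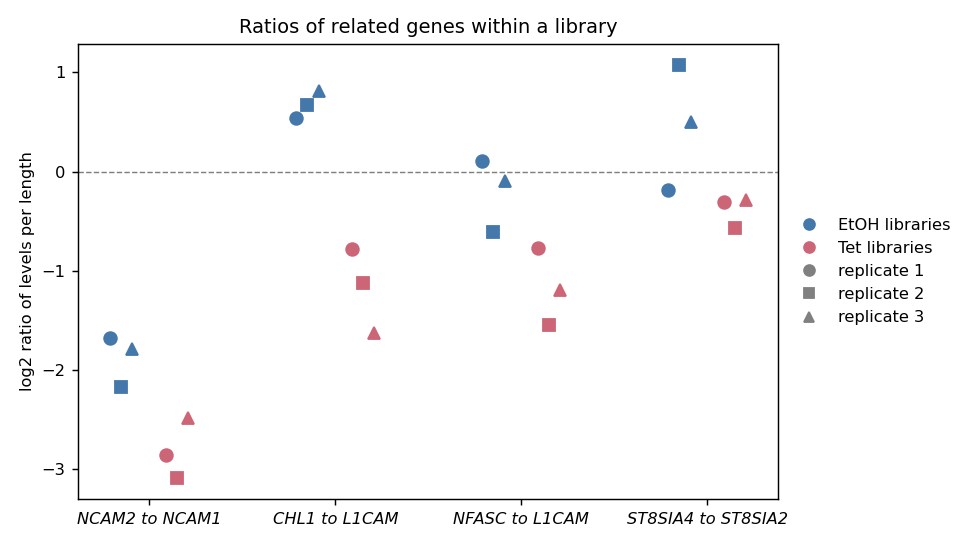
Log2 ratio of levels per length between related genes within a library (vertical axis), with EtOH libraries blue, Tet libraries red and 1 marker shape for each replicate number. The *CHL1* to *L1CAM* ratio lies between 0.55 and 0.81 in EtOH and between -1.63 and -0.78 in Tet, and the *ST8SIA4* to *ST8SIA2* ratio of EtOH replicate 1, -0.18, lies near the Tet values of -0.57 to -0.29.

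Over 7 lists of pathway genes, the antisense genes included, 52 genes were tested in the edgeR fit of all 6 libraries with no replicate term, and 0 were called after adjustment. At an unadjusted p under 0.05, 16 were higher and 2 lower, against 5.83% and 4.94% of all genes tested. The lists were chosen with earlier results of these data known, so these and the shares below describe the lists and test nothing. DESeq2, which fitted 64 of these genes, called 5 higher (*ANK3*, *CADM2*, *DCX*, *FGFR2* and *NRP1*), against 1.29% of all genes to which it gave an adjusted p, and limma-voom called 0 of 52. With no filter on low counts edgeR called 4 of 64 higher (*ANK3*, *CADM2*, *DCX* and *NRP1*), against 0.457% of all genes. Without EtOH replicate 2 it called 6 of 53 higher (*ANK3*, *CADM2*, *DCX*, *EZR*, *NEGR1* and *NRP1*), against 1.51%. In the supply of sialic acid, from its synthesis by GNE to its transport into the Golgi by SLC35A1 and its removal by neuraminidases, 7 of 10 genes were tested, with a median log2 fold change of -0.07. None passed, and *NANP*, which removes a phosphate from the sialic acid precursor, had the lowest value at -0.50 (edgeR adjusted p = 0.442), and *SLC35A1* the highest at 0.01 (edgeR adjusted p = 0.996), with 55.5% of its exon bases shared with another gene. *GNE*, the enzyme that starts the route, named after its values were seen, measured 89.8, 92.2 and 91.6 CPM in EtOH and 81.0, 78.5 and 84.2 CPM in Tet, so that its groups did not overlap (log2 fold change -0.17, edgeR adjusted p = 0.724). Of the other sialyltransferases of this linkage, 3 of 4 were tested and none passed. *ST8SIA1*, the GD3 ganglioside synthase, had a mean of 13.6 CPM in EtOH and 19.9 CPM in Tet with no overlap (log2 fold change 0.54, edgeR adjusted p = 0.278), and *ST8SIA3* had the lowest value at -0.22 (edgeR adjusted p = 0.767).

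For partners and signalling of NCAM, 12 of 13 genes were tested, with a median log2 fold change of 0.36 and 12 of 12 above 0, beside 49.3% of all genes tested above 0. This list too was chosen with earlier results known, so the share is a description only. None passed after adjustment, and 3 were higher unadjusted (5.83% of all genes tested): *FGFR2*, a growth factor receptor, at 0.82 (edgeR adjusted p = 0.183), the kinase *FYN* at 0.38 (edgeR adjusted p = 0.375) and the growth cone protein *GAP43* at 1.04 (edgeR adjusted p = 0.384), named after their values were seen. The highest value was that of *AGRN*, 1.71 (edgeR adjusted p = 0.492), which was low in each library but Tet replicate 3, and the lowest that of the focal adhesion kinase *PTK2*, 0.03 (edgeR adjusted p = 0.978). For partners of the L1 family, 16 of 19 were tested, 6 were higher and 1 lower unadjusted (5.83% and 4.94% of all genes tested), and the median was 0.21. *NRP1*, a semaphorin co-receptor, measured 8.16, 18.0 and 8.50 CPM in EtOH and 29.6, 82.1 and 35.6 CPM in Tet. Replicate 2 was the highest under both labels and the groups did not overlap (log2 fold change 2.09, edgeR adjusted p = 0.129). *NRP1* passed with edgeR and no filter (2.08, edgeR adjusted p = 0.00089), by DESeq2 (2.08, DESeq2 adjusted p = 0.00039) and without EtOH replicate 2 (2.57, edgeR adjusted p = 0.0178), and its value was 1.497 without Tet replicate 2 (edgeR adjusted p = 0.340). *EGFR* had the lowest value at -0.61 (edgeR adjusted p = 0.232), and all its Tet libraries were below its EtOH libraries.

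*ANK3*, the ankyrin that anchors the L1 family at the axon initial segment, measured 92.9, 49.1 and 81.4 CPM in EtOH and 184.6, 166.8 and 190.2 CPM in Tet (log2 fold change 1.28, edgeR adjusted p = 0.0812). *DCX*, a microtubule protein of migrating neurons, had means of 419 ± 150.5 and 1008 ± 140.7 CPM (SD, n = 3), with no overlap (log2 fold change 1.26, edgeR adjusted p = 0.134). Both were named after their values were seen. Of the proteases that cut L1 and its relatives at the cell surface, 3 of 4 were tested, none passed even unadjusted, and their values ran from -0.12 for *BACE1* (edgeR adjusted p = 0.874), with 49.1% of its exon bases shared with opposite-strand genes, to 0.11 for *ADAM17* (edgeR adjusted p = 0.862). Of 15 other adhesion molecules of the immunoglobulin superfamily, 9 were tested, 5 were higher and 0 lower unadjusted (5.83% and 4.94% of all genes tested), and the median was 0.39. *CADM4* had the highest value at 1.15 (edgeR adjusted p = 0.297), *THY1* the lowest at -0.97 (edgeR adjusted p = 0.515), both under 3 CPM, and *CADM2*, named after its values were seen, had means of 13.0 and 28.3 CPM (log2 fold change 1.12, edgeR adjusted p = 0.0966).

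**Figure D5:**
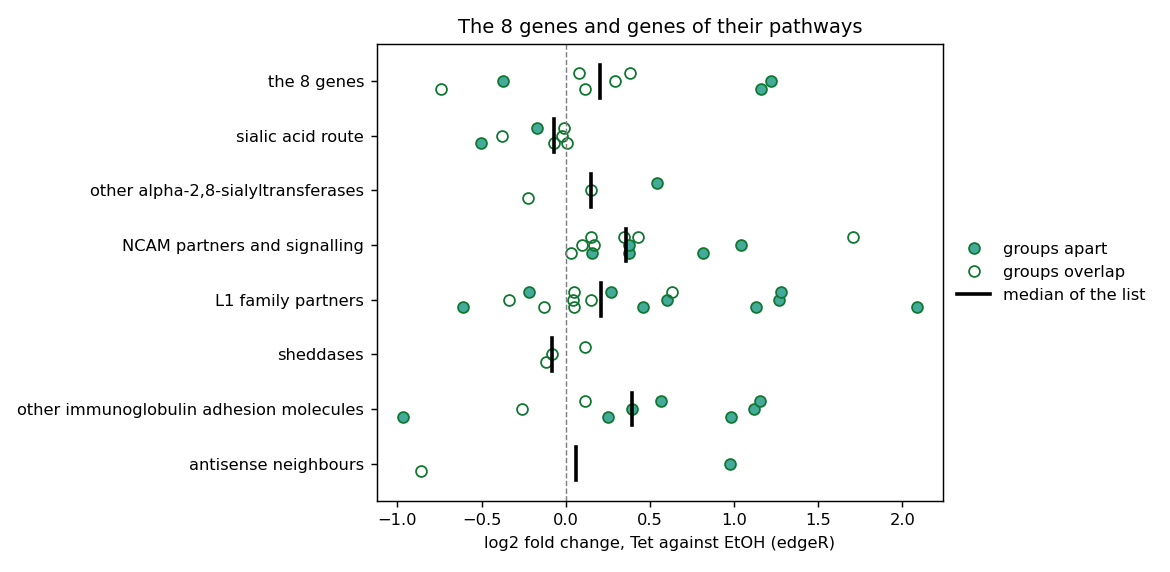
Log2 fold change of Tet against EtOH from edgeR (horizontal axis) for each tested gene of the 8 and of the lists around them, filled where no Tet library overlaps an EtOH library, with the median of each list as a black bar. The lists of NCAM partners (median 0.36) and of other immunoglobulin adhesion molecules (0.39) lie to the right of 0, and sialic acid genes (-0.07) and sheddases (-0.08) near 0.

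Genes whose level followed that of *NCAM1* most closely were sought among 10089 genes with a mean of at least 5 CPM, by Pearson's r of log2 CPM over the 6 libraries. They were *DLC1* (r = 0.998, from a mean of 60.6 to 157.1 CPM), *SORBS2* (0.996, 1.43 to 9.44 CPM, which reached the minimum mean only through the Tet libraries), *EBF3* (0.995, 31.3 to 64.6 CPM), *ZNF790* (0.995, 11.8 to 19.7 CPM) and *LINC01829* (0.994, 559 to 1256 CPM). With 6 libraries in 2 groups, any gene with a large and even difference gives a high r, and 155 genes (1.54%) were over 0.95. Of the 7 relatives and modifiers none was among them: *L1CAM* had 0.78, *NCAM2* 0.54, *ST8SIA2* 0.52, *NRCAM* 0.47 and *NFASC* 0.11, while *CHL1* had -0.73 and *ST8SIA4* -0.85. These values share the same libraries and describe likeness only.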

How the data were processed

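Total RNA of 6 libraries (3 EtOH, 3 Tet) was sequenced after removal of ribosomal RNA. The deposited values are estimated counts per gene that the authors made with STAR (2.7.1a per the processing notes) on GRCh38 and featureCounts (1.6.4 per the file headers, 1.5.1 per the notes). Per the headers, pairs over several genes were divided among them and strand was not used, whereas the study's methods state a stranded count, so the headers were followed. Between 12.3% and 14.7% of genes per library were not whole, and values were rounded. The 92 spike-ins were at 0 and left out. Symbols were found for 60437 identifiers. Genes were kept by filterByExpr, scaled by TMM and tested with edgeR 4.0.16 (quasi-likelihood, R 4.3.3), with Benjamini-Hochberg adjustment over all genes tested and a threshold of 0.05. SEs are the fold change over the root of F. TPM used exon lengths. DESeq2 1.42.0, limma-voom (limma 3.58.1), other scalings and filters, a replicate block and leaving out each library were alternatives. Named genes were the 8, *MYCN*, called genes and the highest and lowest of each list, cell type markers and the 5 genes most like *NCAM1*, and others are marked. Members and lists were chosen with earlier results of these data known. The level of 1 blood cell marker is not reported here.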

Additional observations from a re-analysis of the deposited data

How the results depend on the processing

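Counts of genes called higher and lower were 33 and 20 with edgeR, 185 and 117 with no filter, 290 and 209 with DESeq2, 421 and 254 with the replicate block, and 27 and 13 with RLE size factors. Leaving out 1 library gave 0 to 361 higher and 0 to 331 lower, both highest without EtOH replicate 2, and 0 in both directions by edgeR without Tet replicate 1 or Tet replicate 3, where 1865 and 2067 genes passed unadjusted. Without EtOH replicate 1 they were 1 and 1, and without EtOH replicate 3 or Tet replicate 2 they were 1 and 0. The cause was not tested. For the 7 genes with a test, 86 of 91 values kept direction and side of the threshold. None of these genes passed in the fit of all 6 libraries, and most fits with 1 library left out called almost no gene. Staying on that side was thus nearly fixed in advance, and the tally does not measure robustness. *L1CAM* passed with DESeq2 (1.15, adjusted p = 0.0359) and with the block (1.17, edgeR adjusted p = 0.0244) and ran from 0.83 to 1.33 with 1 library left out. *CHL1* ran from -0.99 to -0.57, passing without EtOH replicate 2. *NCAM1* ran from 1.18 to 1.25, above 0 in each. *ST8SIA2* ran from 0.12 to 0.71. *NFASC* ran from -0.24 to 0.43 and changed sign. *MYCN* ran from -0.22 to 0.21, *PTK2* from -0.069 to 0.15 and *SLC35A1* from -0.11 to 0.15, with -0.0092 under RLE size factors and -0.0055 by DESeq2. Of 190 values of the other named genes, 173 were unaltered in direction and call. None of these genes passed in the fit of all 6 libraries either, so the same limit holds. Libraries with the same replicate number correlated at 0.0603, 0.5105 and 0.2194 in their deviations from the group means, and 3 of the 6 correlated best with their own number. The labels give no batch, so the number entered only an alternative fit, as the replicate block. A factor shared by some pairs was not tested. With the replicate block edgeR called 7 of 52 pathway genes higher and 1 lower, against 421 and 254 of all 22443 genes tested. The 7 were *ANK3*, *CADM1*, *CADM2*, *CNTN1*, *DCX*, *NEGR1* and *NRP1*, the last with an edgeR adjusted p of 0.0003. The 1 lower was *EGFR* (-0.61, edgeR adjusted p = 0.0423). Depth limits the antisense genes, of which *L1CAM-AS1* and *CHL1-AS2* lay near the level of 3 counts.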
